A study of Mus musculus with 3 samples.

Results

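Adapters and kinases of the immunoreceptor tyrosine-based activation motif (ITAM) pathway were followed through the lymphocytes and myeloid cells of the mouse duodenum. The set holds 8 of the 32285 genes in the count matrices, named by symbol with earlier results of these data known. It consists of the adapters Fcer1g, Tyrobp, Hcst and Cd247, the kinases Syk, Zap70 and Lck, and the scaffold Lat. The series holds 3 single-cell libraries of immune cells from C57B6/J mice, male per the series title, taken 30 days after an injection into the duodenal wall. The saline group has 2 libraries (saline 1 in batch 1, saline 2 in batch 2) and the group given mouse recombinant preformed fibrils of alpha-synuclein (PFF) has 1 (PFF 1, in batch 1). One portion of each digest was sorted for CD45 and the other was enriched with CD11b beads, after which the portions were joined, so the shares of cell types follow the sorts. The number of mice behind a library is not given in the sources used here. Nothing in the labels says that the wells came from separate mice, and the p-values below therefore measure only the spread between wells, which may be technical.

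Both saline files contain the same 3 wells, with 1509, 3648 and 8732 cell barcodes and identical counts in every cell. These wells, called shared 1, 2 and 3 here, were counted once, which leaves 6 distinct wells: shared 1 to 3, the unrepeated wells of saline 1 and saline 2, and PFF 1. Any other pair of wells had 1 to 42 barcodes in common, apart from saline 2 and PFF 1 with 119, and no such barcode carried identical counts in both. The wells held 985 to 11060 cells after filtering, with medians of 3217 to 10027.5 UMIs (unique molecular identifiers, each standing for 1 captured transcript). Shared 1, shared 2, saline 2 and PFF 1 stood apart in mitochondrial RNA: 20.1% to 52.2% of their cells had more than 15% mitochondrial UMIs and were dropped, against 2.61% in shared 3 and 3.04% in saline 1.

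T cell types were set cell by cell from raw UMIs in T-like clusters. CD8 alpha-beta cells (1014 over the 6 wells) had Trac, Cd8a and Cd8b1, CD8 alpha-alpha cells (6020) had Trac and Cd8a without Cd8b1, gamma-delta cells (5018) had Trdc without Trac, and CD4 cells (157) had Trac and Cd4. A further 10681 cells with both Trac and Trdc, more than in any of these types, were left out of them. In the largest T-like cluster 72.3% of cells had a Trac UMI and 69.1% a Trdc UMI. The CD8 alpha-alpha and gamma-delta gates therefore depend on depth, and a missing UMI does not show that a gene was absent. The class called CD3-negative (747 cells) was defined by its gate alone, which was no UMI of Cd3d or Cd3e and at least 3000 UMIs in a cell of a T-like cluster. Its label fitted only in part. Cd3g, the remaining CD3 chain, stood at 2050 CPM (the gene's UMIs after scaling the UMIs of every class and well to the same standard total) against 1887 CPM in gamma-delta cells, and 611 of the 747 cells had a Cd3g UMI. Ncr1, which encodes the natural killer cell receptor NKp46, stood at 78.4 CPM in the class as a whole. It reached 809 CPM in the 61 cells that lay in the Ncr1 cluster, where Cd3g was at 86.3 CPM. The class is therefore described by its gate and not as natural killer cells.

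ITAM adapters are short membrane proteins without a ligand-binding part of their own. They pair with receptors, and once a receptor is engaged a Src family kinase such as Lck phosphorylates the tyrosine pair of the motif, to which Syk or Zap70 then binds through its SH2 domains. Fcer1g (FcR gamma) and Tyrobp (DAP12) serve Fc receptors and activating natural killer and myeloid receptors, Cd247 (CD3 zeta) serves the T cell receptor, and Hcst (DAP10) pairs with NKG2D and recruits phosphatidylinositol 3-kinase. Lat is the membrane scaffold that Zap70 phosphorylates in T cells. The intestinal epithelium is known for intraepithelial T cells, many of which carry gamma-delta receptors or CD8 alpha-alpha and express receptors otherwise linked to natural killer cells.

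The motifs themselves show how the adapters differ, so their coding sequences are printed from the reference transcripts (GENCODE M21, GRCm38), 5′ to 3′. Capitals mark the tyrosine codons and the leucine or isoleucine codons that close each block. Where a motif runs over 2 exons, its coordinates include the intron.
Fcer1g, chr1:171229889-171230072, minus strand, exons 4 to 5 of 5: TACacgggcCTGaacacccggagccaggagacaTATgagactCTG
Tyrobp, chr7:30415670-30417382, plus strand, exons 4 to 5 of 5: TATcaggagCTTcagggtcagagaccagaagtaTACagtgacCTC
Cd247 ITAM 1, chr1:165856451-165857454, plus strand, exons 3 to 4 of 8: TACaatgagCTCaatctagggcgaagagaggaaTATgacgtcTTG
Cd247 ITAM 2, chr1:165858473-165859260, plus strand, exons 5 to 6 of 8: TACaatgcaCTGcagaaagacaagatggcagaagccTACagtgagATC
Cd247 ITAM 3, chr1:165859819-165861042, plus strand, exons 7 to 8 of 8: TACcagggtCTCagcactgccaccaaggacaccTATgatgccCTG
Hcst, chr7:30417821-30417832, minus strand, exon 4 of 4, with its tyrosine-to-methionine motif in place of an ITAM: TACatcaacATG

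Cd247 carries 3 ITAMs, Fcer1g and Tyrobp carry 1 each, and Hcst carries none. Between the blocks lie 7 codons, or 8 in the second ITAM of Cd247. All 5 ITAMs begin in one coding exon and end in the next. The same search found at least 1 match in the longest coding sequence of 623 of 21584 genes (2.89%) and 3 or more matches in 3 genes, so a match is only a description. Tyrobp (chr7:30413760-30417585, plus strand) and Hcst (chr7:30417712-30419854, minus strand) end tail to tail with 126 bases between them. The 3′ reads of this pair would be distinguished by strand, and whether the authors' counting used strand is not given in the sources used here. The other members lie apart: Syk at chr13:52583173-52648792, Zap70 at chr1:36761798-36782818, Lat at chr7:126363824-126369570 and Lck at chr4:129548344-129573641.

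Fcer1g and Tyrobp were high in CD8 alpha-alpha, gamma-delta and CD3-negative cells and low in CD4 cells. Hcst and Lat were highest in CD8 alpha-beta and CD4 cells, and Cd247 in CD4, CD8 alpha-beta and gamma-delta cells. Zap70 and Lck were present in the 4 T cell types and CD3-negative cells and low in myeloid and B cells (0 to 8.99 CPM of Zap70 and 36.0 to 65.1 of Lck in B cells), and Syk was near 0 in all 4 T cell types but not in CD3-negative or myeloid cells. The plot of levels by well shows these patterns.

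**Figure D1:**
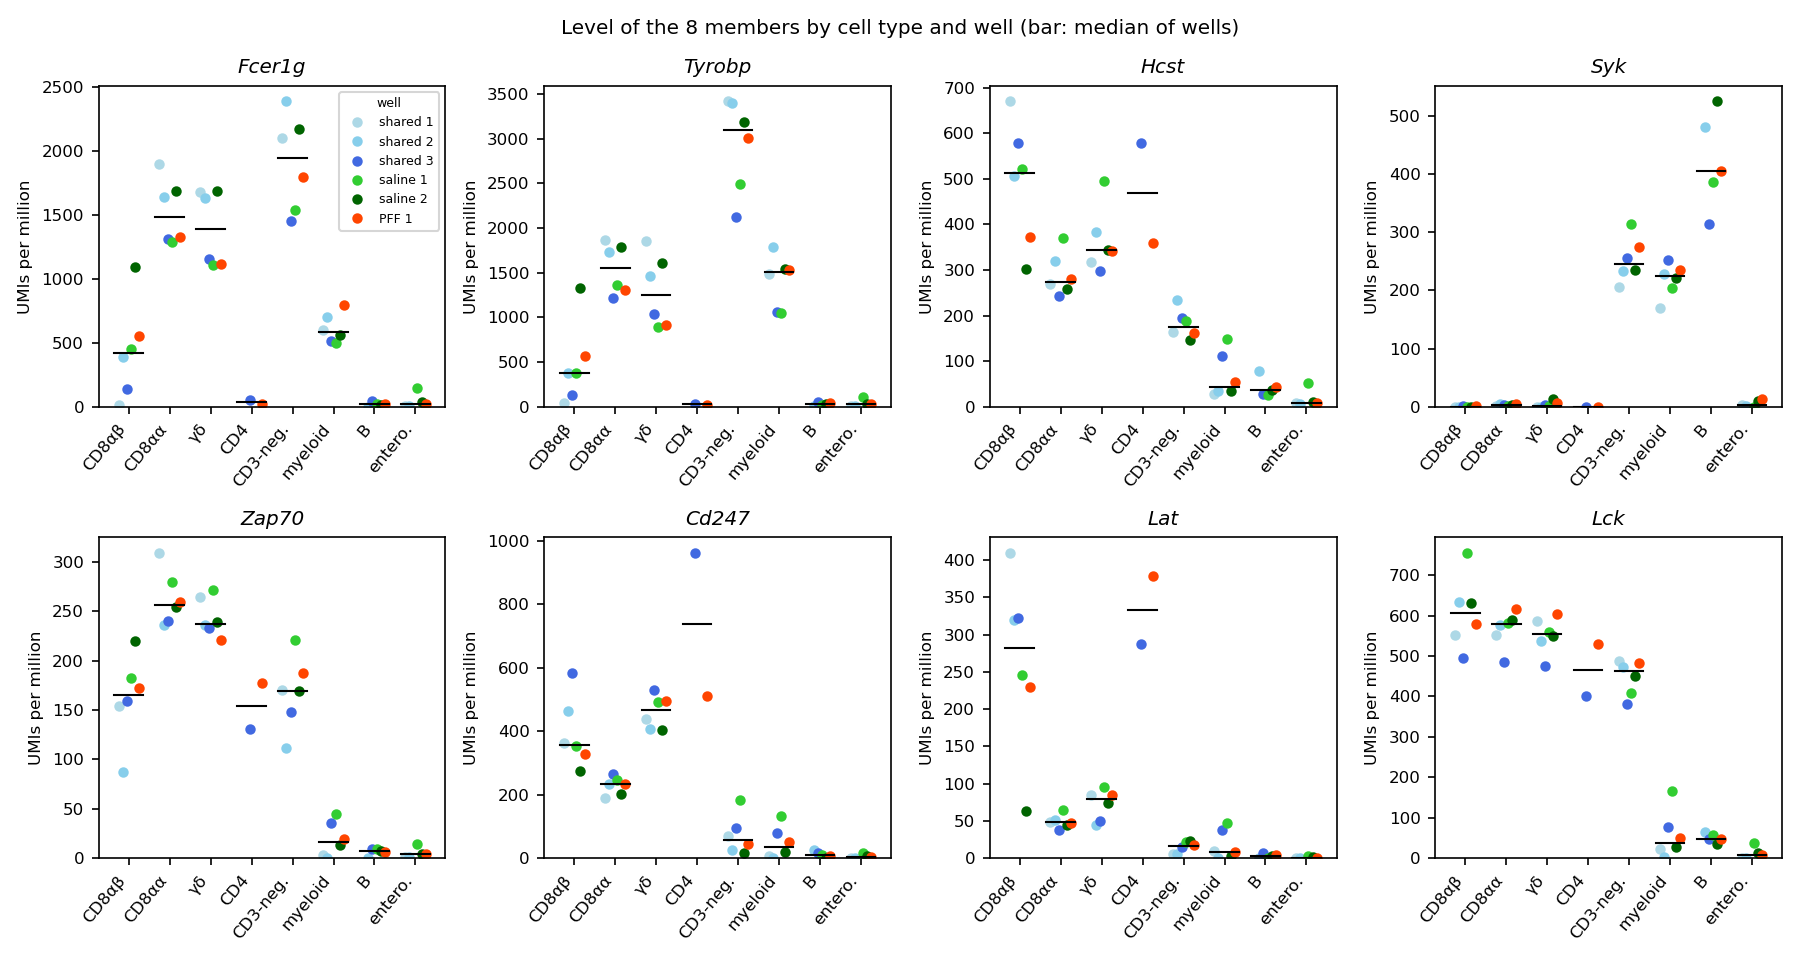
CPM (linear axes) of the 8 members in the 6 cell types, B cells and enterocytes, with 1 point per distinct well that holds at least 20 cells of the type and a bar at the median of the wells. Syk lies near 0 in the T cell types and between 171 and 315 CPM in CD3-negative and myeloid cells, while Lck is high in the T cell types and CD3-negative cells and low in B cells.

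Fcer1g, the FcR gamma chain, stood at 1895, 1642 and 1314 CPM in CD8 alpha-alpha cells of shared 1, 2 and 3, at 1288 in the saline 1 well, 1686 in saline 2 and 1329 in PFF 1. In gamma-delta cells the same wells gave 1678, 1632, 1153, 1109, 1684 and 1114 CPM. CD8 alpha-beta cells gave 15.4, 389, 138, 453, 1090 and 556 CPM, below every gamma-delta and CD8 alpha-alpha value, with shared 1 lowest and saline 2 highest. CD4 cells, with at least 20 cells in 2 wells only, had 54.0 CPM in shared 3 and 19.4 in PFF 1. CD3-negative cells ranged from 1454 (shared 3) to 2388 CPM (shared 2) and were above gamma-delta cells in 6 of 6 wells, although the 2 ranges overlap. Myeloid cells had 499 to 792 CPM, below CD3-negative cells in every well.

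Tyrobp, which encodes DAP12, followed a similar order. Its levels in CD3-negative cells were 3418, 3404, 2123, 2495, 3187 and 3012 CPM in shared 1, 2 and 3, saline 1, saline 2 and PFF 1. Gamma-delta cells had 1851, 1459, 1032, 892, 1612 and 914 CPM, so the 2 types did not overlap. CD8 alpha-alpha cells ranged from 1216 to 1865 CPM. CD8 alpha-beta cells ranged from 41.0 (shared 1) to 1323 CPM (saline 2), which overlaps gamma-delta cells, although gamma-delta cells were higher within each of the 6 wells. CD4 cells had 31.5 and 17.5 CPM, and myeloid cells 1052 to 1785 CPM.

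Cd247, the CD3 zeta chain, separated gamma-delta from CD8 alpha-alpha cells. Gamma-delta cells had 438, 408, 529, 494, 405 and 495 CPM in the order given above, and CD8 alpha-alpha cells 189 CPM in shared 1, the lowest well, to 265 in shared 3, the highest. These ranges did not overlap. CD8 alpha-beta cells lay between 275 and 583 CPM, overlapping gamma-delta cells, and CD4 cells had 963 and 511 CPM. CD3-negative cells had 70.4, 25.4, 94.9, 182, 16.2 and 45.2 CPM, below every gamma-delta value, with saline 1 highest. Hcst, the DAP10 adapter, was highest in CD8 alpha-beta cells at 301 to 671 CPM and CD4 cells at 578 and 360 CPM. It was lower in gamma-delta (298 to 495 CPM), CD8 alpha-alpha (243 to 370 CPM), CD3-negative (146 to 234 CPM) and myeloid cells (27.9 to 148 CPM), and neighbouring types in this order overlapped except CD8 alpha-alpha and CD3-negative cells.

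Syk, the tandem-SH2 kinase of B cells and myeloid cells, was the member with the sharpest step between lymphocyte types. CD3-negative cells had 205, 234, 255, 315, 235 and 275 CPM in shared 1, 2 and 3, saline 1, saline 2 and PFF 1, from 35 to 735 Syk UMIs a well. Gamma-delta cells had 0, 0, 2.29, 0.630, 13.3 and 6.94 CPM, CD8 alpha-alpha cells 1.40 to 5.11 CPM, CD8 alpha-beta cells 0 to 0.844 CPM, and the CD4 wells 0. CD3-negative cells thus lay far above every T cell value in all 6 wells, and overlapped myeloid cells (171 to 252 CPM). B cells, which depend on Syk for antigen receptor signalling, had 315 to 526 CPM in the wells with at least 20 of them.

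Zap70, the related kinase of T cells and natural killer cells, varied far less. It stood at 236 to 309 CPM in CD8 alpha-alpha cells and 221 to 271 CPM in gamma-delta cells, both above the 87.1 to 220 CPM of CD8 alpha-beta cells. CD3-negative cells had 112 to 221 CPM and were below gamma-delta cells in 6 of 6 wells. Lck, the Src family kinase bound to CD4 and CD8, spanned 476 to 756 CPM over the CD8 and gamma-delta types, whose ranges overlapped, and 381 to 487 CPM in CD3-negative cells. Lat was at 410, 320, 323, 246, 63.4 and 230 CPM in CD8 alpha-beta cells, with saline 2 lowest. It was at 288 and 379 CPM in CD4 cells, 44.8 to 95.2 CPM in gamma-delta cells, 37.9 to 64.1 CPM in CD8 alpha-alpha cells and 5.08 to 22.8 CPM in CD3-negative cells. CD3-negative cells did not overlap the T cell types in Lat.

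T cell RNA was found in the myeloid class. Cd3e stood there at 131 CPM over all wells, from 0 to 499 CPM by well with saline 1 highest, and the myeloid levels of Zap70 (0 to 44.8 CPM), Lck (2.24 to 166 CPM), Cd247 (0 to 134 CPM), Hcst (27.9 to 148 CPM) and Lat (0 to 47.0 CPM) were each highest in saline 1 as well. Macrophage RNA in the lymphocytes was low. The sum of 10 macrophage markers was 4.19 to 11.0 CPM in CD3-negative cells and 6.73 to 14.1 CPM in gamma-delta cells, against 3265 to 5371 CPM in myeloid cells. C1qa, a defining marker, had 3 UMIs in all CD3-negative cells and 4229 in myeloid cells. Fewer carriers and less RNA per cell cannot be told apart in such sums, and shares of cells are given next.

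Each cell was thinned to 2000 UMIs so that depth could not set the share of cells with a UMI. Shallower cells were left out: 171 of 785 myeloid cells, 588 of 1957 enterocytes and 0 to 291 cells of each lymphocyte type. Fcer1g was then found in 88.5% of CD8 alpha-alpha, 81.0% of gamma-delta, 91.0% of CD3-negative and 57.3% of myeloid cells, but in 19.7% of CD8 alpha-beta and 7.14% of CD4 cells. Unthinned, these shares were 97.5%, 89.4%, 96.4%, 80.3%, 30.0% and 16.6%. The thinned CD8 alpha-beta share ran from 2.5% in shared 1 to 71.4% in saline 2, and was 35.6% without shared 3, which holds 646 of the 1006 cells at 10.8%. Syk was found in 37.9% of CD3-negative and 29.0% of myeloid cells and in 0.199%, 0.440% and 0.613% of CD8 alpha-beta, CD8 alpha-alpha and gamma-delta cells (unthinned, 70.8% and 52.2%, and 0.493%, 1.10% and 1.12%). Among 154 CD4 cells none had a Syk UMI, which allows a share of up to 2.37% (exact binomial interval, counting error only). Enterocytes, taken as a type that should lack the members, gave 3.51% for Fcer1g and 0.657% for Syk (unthinned 9.04% and 5.72%, at a median of 7960 UMIs against 4892.5 to 7457 in the 6 types). Their Syk was 0 CPM in saline 1 and highest in PFF 1 (12.6 CPM). Every other member was highest in enterocytes of saline 1, with Fcer1g at 142 CPM. Whether enterocytes lack Syk was not tested, so a Syk share not above theirs does not place Syk at background. The Syk shares of the 4 T cell types and the Fcer1g and Tyrobp shares of CD4 cells had intervals that overlapped or lay below that of enterocytes at 2000 UMIs, while the other 42 of 48 combinations of type and member lay above it. The Syk and Tyrobp shares were thus not above those of enterocytes and kept that place unthinned and at 4000 UMIs. The Fcer1g share of CD4 cells did not, since it lay above enterocytes unthinned and at 4000 UMIs (11.8%, interval 6.88% to 18.4%, against 3.84%, 2.81% to 5.10%).

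Pairs of adapters and kinases were then read within single cells at 2000 UMIs. Fcer1g alone, without Cd247, was seen in 57.7% of CD8 alpha-alpha cells, Cd247 alone in 4.52% and both in 30.8%. Gamma-delta cells held both adapters most often, at 45.2%, with 35.7% for Fcer1g alone and 12.3% for Cd247 alone, although in saline 2 Fcer1g alone (49.3%) exceeded both (42.1%). The order of these states follows depth. Unthinned, Fcer1g was found in 97.5% and Cd247 in 66.8% of CD8 alpha-alpha cells. Both together were then more frequent than Fcer1g alone, as in gamma-delta cells (89.4% and 78.6% unthinned). At 2000 UMIs and over all wells Cd247 alone was the most frequent state in CD8 alpha-beta cells, at 50.7% with both in 6.66%, and in CD4 cells, at 66.9% with both in 4.55%. The CD8 alpha-beta wells differed: Cd247 alone led in shared 1, 2 and 3 (42.1% to 61.0%) and PFF 1 (32.1%), neither gene in saline 1 (41.9% against 25.6% for Cd247 alone) and Fcer1g alone in saline 2 (46.9% against 16.3%). Without shared 3, Cd247 alone and neither gene were equal at 32.2%. Among CD3-negative cells 85.3% showed Fcer1g without Cd247. For the kinases at 2000 UMIs, 26.4% of CD3-negative cells showed Syk without Zap70, 16.5% Zap70 without Syk and 11.5% (86 cells) both, whereas 36.2% of gamma-delta cells showed Zap70 alone. This order also follows depth. Unthinned, Syk was found in 70.8% and Zap70 in 64.9% of CD3-negative cells, so both together were then more frequent than either alone. A cell without a UMI of a gene at 2000 UMIs may still express it.

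**Figure D2:**
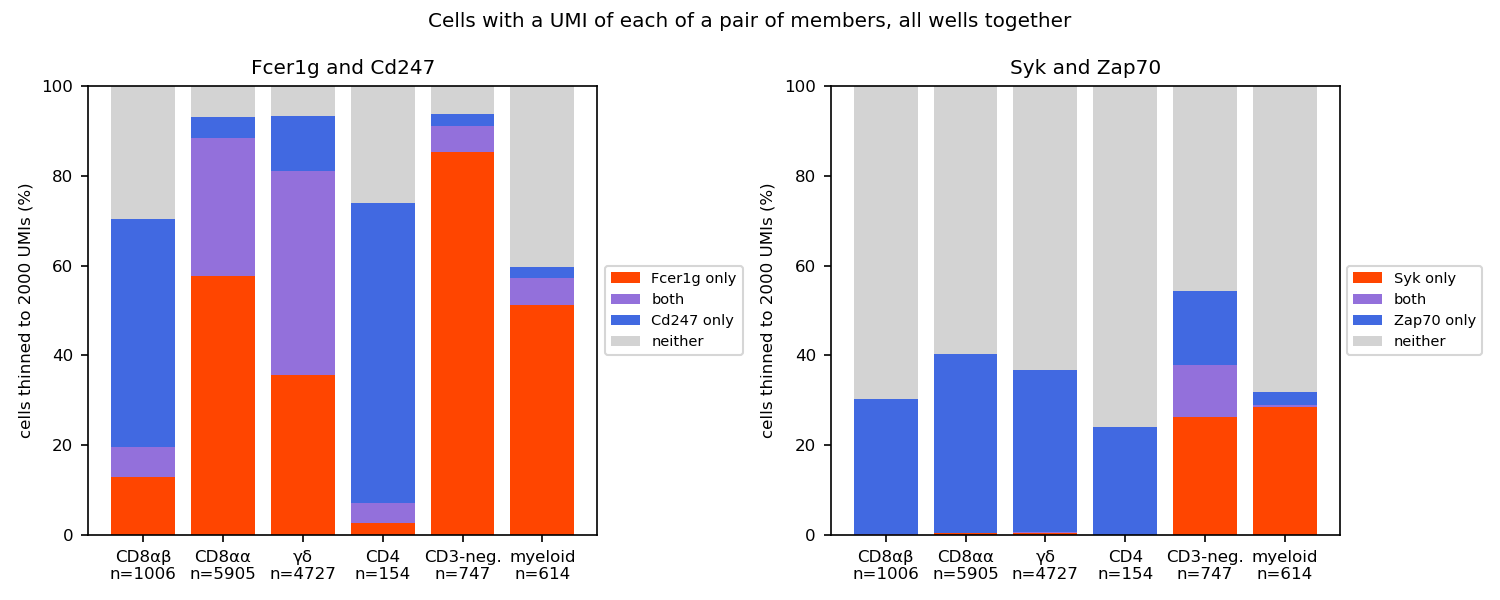
Percent of cells, each thinned to 2000 UMIs, that hold a UMI of one gene alone, of both, or of the other alone, for Fcer1g with Cd247 and for Syk with Zap70, by cell type over all 6 wells. Cells with Fcer1g alone make up 85.3% of CD3-negative and 2.60% of CD4 cells.

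The CD8 alpha-beta cells were not uniform. Of the 1014 cells, 704 lay in the cluster that holds most Cd8b1-positive cells and 310 in other clusters, and the split differed by well: 545 of 648 cells in shared 3 but 4 of 49 in saline 2 lay in the main cluster. In that cluster Fcer1g was 0, 0, 30.9, 0, 0 and 6.92 CPM in shared 1, 2 and 3, saline 1, saline 2 and PFF 1. In the remaining CD8 alpha-beta cells it was 55.2, 1016, 516, 811, 1174 and 812 CPM, higher in every well. Tyrobp behaved alike, with 0 to 43.0 CPM in the main cluster and 147 to 1422 CPM outside it, while Lat (301 to 443 against 45.0 to 386 CPM) and Cd247 (363 to 640 against 182 to 387 CPM) overlapped. Thinned shares of cells with Fcer1g were 3.30% and 56.8%. The clustering did not use the 8 members but used genes that vary with them, so these values are descriptions, and the low Lat and high Fcer1g of saline 2 stand beside its 4 cells in the main cluster.

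**Figure D3:**
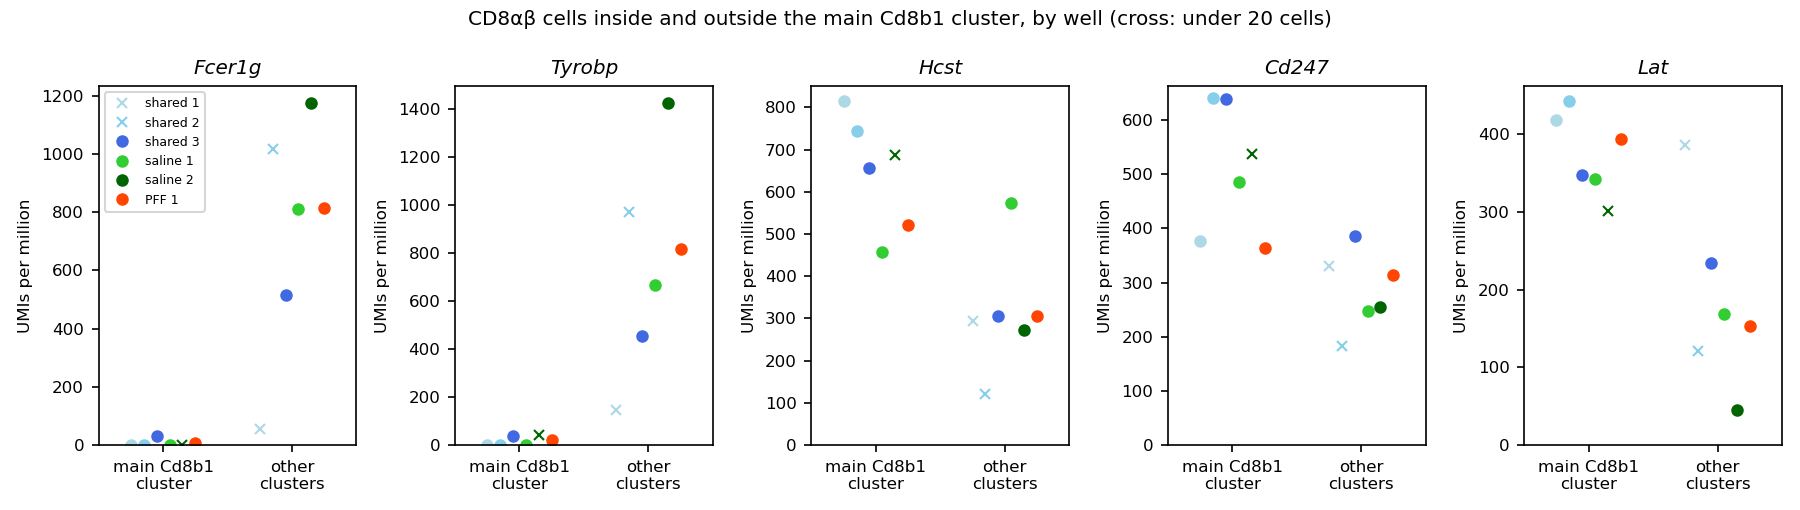
CPM (linear axes) of Fcer1g, Tyrobp, Hcst, Cd247 and Lat in CD8 alpha-beta cells inside and outside the cluster with most Cd8b1-positive cells, with 1 point per well and crosses for wells with under 20 cells there. Fcer1g and Tyrobp do not exceed 43.0 CPM inside the cluster and run from 55.2 to 1422 CPM outside it.

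Cell types were compared over wells with edgeR's quasi-likelihood test on summed UMIs, with the well as a block and Benjamini-Hochberg adjustment over all genes tested, and called at an adjusted p under 0.05. Gamma-delta cells were set against CD8 alpha-beta cells first. Of the 7 members tested 2 were higher and 1 lower, beside 9.18% of 10253 genes called (3.34% higher, 5.84% lower), and the median log2 fold change was 0.19 for the members and 0.03 for all genes. Fcer1g was 3.87-fold higher (log2 1.95 ± 0.45 SE, adjusted p = 0.0199, higher in 6 of 6 wells) and Tyrobp 3.45-fold higher (1.79 ± 0.45, adjusted p = 0.0284). Lat was 3.49-fold lower (-1.80 ± 0.33, adjusted p = 0.00602). Zap70 (0.50 ± 0.15, adjusted p = 0.0542), Hcst (-0.47 ± 0.19, 0.144), Cd247 (0.19 ± 0.15, 0.507) and Lck (-0.19 ± 0.12, 0.360) did not pass the edgeR test. The calls of Fcer1g and Tyrobp were lost without shared 2 (adjusted p = 0.0638 and 0.0844), without shared 3 (0.0921 and 0.121) and without saline 1 (0.0550 and 0.0712), that of Tyrobp also without the well term (0.0779), and all 3 calls in cells of at least 5000 UMIs (0.233, 0.370 and 0.330 for Lat). Log2 values of Fcer1g and Tyrobp were 0.94 and 0.69 in the 3 unrepeated wells and 3.69 and 3.53 at a gate of 2 UMIs, and those of Lat -0.98 and -2.45. The CD8 alpha-beta sums of the wells differ in their share of main-cluster cells, as given above, and its part in these results was not tested.

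CD8 alpha-alpha cells differed from CD8 alpha-beta cells in 6 of the 7 members tested, 3 higher and 3 lower, beside 12.3% of 10222 genes called (5.59% higher, 6.71% lower). Tyrobp was 4.36-fold (log2 2.13 ± 0.41, edgeR adjusted p = 0.00573) and Fcer1g 4.32-fold higher (2.11 ± 0.45, 0.00880), and Zap70 was 1.55-fold higher (0.63 ± 0.14, 0.0115). Lat was 4.96-fold (-2.31 ± 0.28, 0.000179), Cd247 1.73-fold (-0.79 ± 0.14, 0.00325) and Hcst 1.70-fold lower (-0.76 ± 0.17, 0.0103), and Lck did not pass (-0.12 ± 0.11, 0.562). The members' median was -0.12, and that of all genes 0.02. Without shared 3 the adjusted p rose to 0.0506 for Fcer1g, 0.0509 for Zap70 and 0.0594 for Hcst. With the 3 unrepeated wells alone Hcst (0.244), Zap70 (0.113) and Cd247 (0.0653) did not pass, and in cells of at least 5000 UMIs, which left 6 of 12 sums, none of the 6 did (0.123 to 0.263). Log2 values of Fcer1g, Tyrobp and Lat were 1.11, 1.11 and -1.69 in the unrepeated wells and 3.95, 3.85 and -3.07 at a gate of 2 UMIs.

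CD4 cells could be compared with CD8 alpha-beta cells in shared 3 and PFF 1 only, which leaves 1 residual degree of freedom. Of 7 members tested 2 were lower, beside 6.41% of 9047 genes called (3.23% higher, 3.18% lower): Tyrobp 11.5-fold (log2 -3.53 ± 0.37, edgeR adjusted p = 8.86e-19) and Fcer1g 7.74-fold (-2.95 ± 0.35, 1.46e-14). Cd247 (0.69, adjusted p = 0.228) and Lat (0.29, 0.912) did not pass. The members' median was -0.11 and that of all genes 0.00. With DESeq2 neither call was made (adjusted p = 0.564 for Fcer1g and 0.155 for Tyrobp), and Fcer1g did not pass without the well term (0.0555). At a gate of 2 UMIs the log2 values were -1.79 for Fcer1g and -2.69 for Tyrobp.

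CD3-negative cells differed from gamma-delta cells in all 8 members, 3 higher and 5 lower, beside 14.9% of 10349 genes called (8.12% higher, 6.73% lower). Syk was 52.7-fold higher (log2 5.72 ± 0.21, edgeR adjusted p = 1.55e-21), Tyrobp 2.41-fold (1.27 ± 0.07, 4.57e-16) and Fcer1g 1.42-fold higher (0.50 ± 0.06, 1.99e-08). Cd247 was 8.47-fold (-3.08 ± 0.16, 4.40e-17), Lat 3.91-fold (-1.97 ± 0.15, 6.55e-13) and Hcst 1.93-fold lower (-0.95 ± 0.08, 2.80e-11). Smaller were the differences of Zap70, 1.35-fold lower (-0.44 ± 0.08, 0.000123), and Lck, 1.20-fold lower (-0.27 ± 0.06, 0.00198). The members' median was -0.35 and that of all genes -0.00. Without the well term Fcer1g (0.0520) and Lck (0.197) did not pass, and the calls of the other 6 members held in all 19 alternatives, with log2 fold changes of 5.25 to 6.99 for Syk and -3.69 to -2.59 for Cd247. The class itself was smaller in every well at Leiden resolution 2 and with doublets kept. Saline 2 held 156 of its cells as reported, 57 at resolution 2 and 66 with doublets kept, and PFF 1 held 258, 157 and 165. Gzma, a granzyme of cytotoxic lymphocytes, stood at 35548 CPM in CD3-negative and 17098 CPM in gamma-delta cells.

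Within the CD3-negative class Syk was lower in the Ncr1-rich cells. It was 63.4 CPM in the 61 cells of the Ncr1 cluster and 271 CPM in the other 686, of which 338 lay in 1 cluster with Syk at 264.5 CPM, Cd3g at 2525 CPM and Ncr1 at 8.7 CPM. Cells with a Cd3g UMI had 271 CPM of Syk and the 136 cells without one 194 CPM, and thinned shares were 39.6% and 30.1%. Fcer1g was also lower in the Ncr1 cluster, at 1091 CPM against 1894 CPM outside it, and Tyrobp was found in 42.6% of its thinned cells against 95.3%. These splits were made after the clusters had been seen and carry no test.

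Myeloid cells, set against CD3-negative cells, were lower in 5 of 8 members and higher in none, beside 57.0% of 10079 genes called (32.7% higher, 24.3% lower), so that a call is common in this comparison. Log2 fold changes were -2.83 ± 0.33 for Lck (edgeR adjusted p = 1.32e-06), -2.75 ± 0.25 for Zap70 (8.76e-08), -1.30 ± 0.12 for Fcer1g (7.05e-08), -1.17 ± 0.20 for Hcst (0.000113) and -0.74 ± 0.11 for Tyrobp (1.76e-05). Syk (0.14 ± 0.12, 0.309), Cd247 (0.06 ± 0.25, 0.856) and Lat (-0.16 ± 0.46, 0.793) did not pass. The members' median was -0.96 and that of all genes 0.03. Macrophages within the class had 875 to 2400 CPM of Fcer1g and dendritic cells 237 to 333 CPM, and the Tyrobp call was lost at the finer clustering (adjusted p = 0.0609). The part of the T cell RNA given above in the values of Lck, Zap70, Cd247, Hcst and Lat was not tested.

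**Figure D4:**
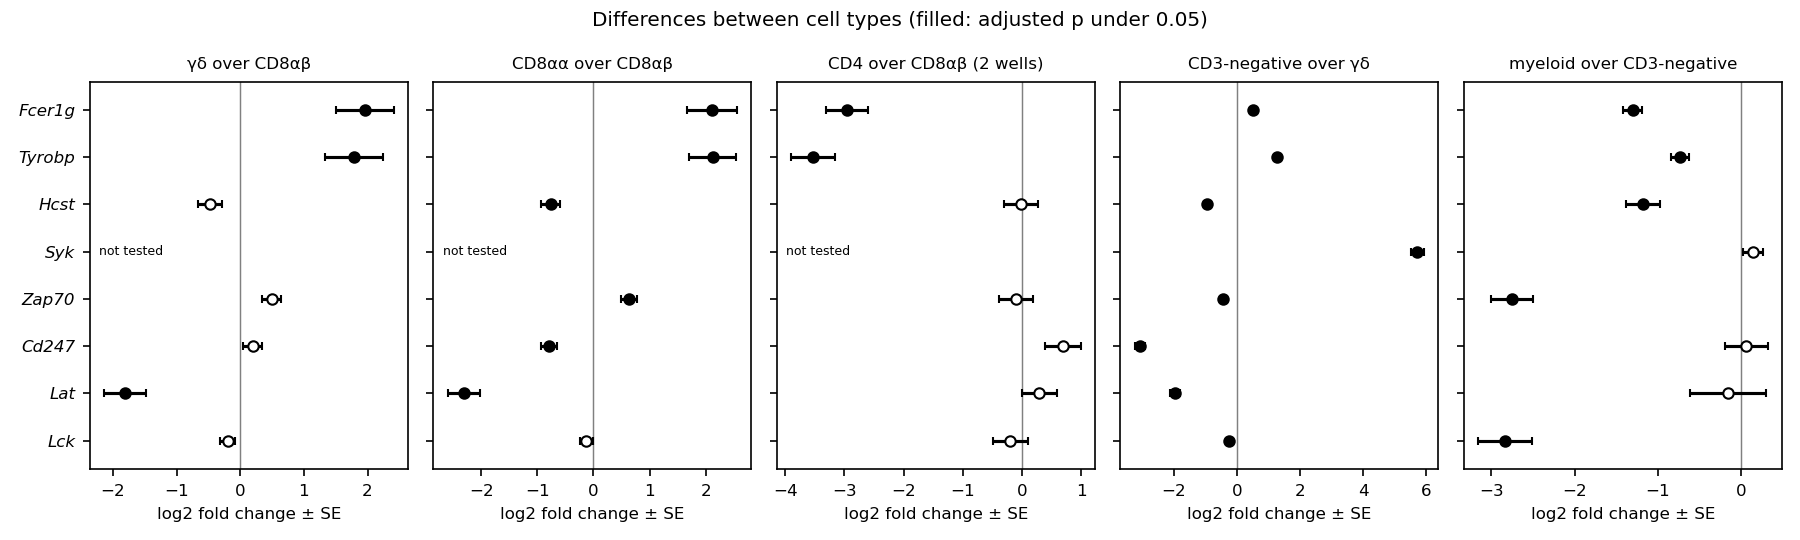
Log2 fold change with its standard error of each member in the 5 comparisons of cell types, from edgeR, with filled points for an adjusted p under 0.05. Syk at 5.72 and Cd247 at -3.08 are the extremes of the comparison of CD3-negative with gamma-delta cells.

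Other genes of the pathway were read from 5 lists, chosen with earlier results of these data known. Counts from the lists stand beside the shares of all genes called higher and lower. These were 3.34% and 5.84% in gamma-delta, 5.59% and 6.71% in CD8 alpha-alpha and 3.23% and 3.18% in CD4 cells. For CD3-negative cells the shares were 8.12% and 6.73%, and for myeloid cells 32.7% and 24.3%. Among receptors that pair with DAP12, DAP10 or FcR gamma, 8 of 11 tested were higher in CD3-negative than gamma-delta cells and none lower, with a list median of 3.37. They were led by Klrb1b (log2 5.89 ± 0.24), Ncr1 (4.96 ± 0.20) and Klrk1 (4.11 ± 0.21), which encodes the NKG2D receptor that pairs with Hcst. In CD8 alpha-alpha against CD8 alpha-beta cells 5 of 7 were higher, led by the Fc receptor Fcgr3 (1.65 ± 0.38) and Cd300lb (1.52 ± 0.46), and Klrc2 was lower (-2.01 ± 0.55). Gamma-delta cells were higher in 2 of 6, Cd244a (1.20 ± 0.24) and Klrd1 (1.14 ± 0.24), the CD94 chain, and CD4 cells were lower than CD8 alpha-beta cells in the same 2 of 4 tested, at -3.77 ± 0.36 and -3.85 ± 0.36. Myeloid cells had 9 of 19 higher and 9 lower, from the C-type lectin Clec4n (10.63 ± 0.36) to Klra8 (-8.23 ± 0.60). List medians for receptors were 0.79 in gamma-delta, 1.29 in CD8 alpha-alpha, -2.63 in CD4 and -0.15 in myeloid cells.

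Kinases of the Src, Tec and Csk families followed. Lyn, a Src family kinase better known from B and myeloid cells, was higher in gamma-delta (log2 1.38 ± 0.34) and CD8 alpha-alpha cells (1.55 ± 0.31) than in CD8 alpha-beta cells, as were Txk (1.13 ± 0.28 and 1.24 ± 0.26) and Fgr (1.07 ± 0.22 and 1.11 ± 0.22). In all, 3 of 7 tested were higher in gamma-delta cells, and 4 of 7 were higher and 1 lower in CD8 alpha-alpha cells. CD4 cells were lower in 4 of 7, led by Lyn (-2.22 ± 0.42). CD3-negative cells had 1 of 7 higher than gamma-delta cells (Fgr, 0.39 ± 0.07) and 1 lower, and myeloid cells had 5 of 10 higher, among them Btk (6.84 ± 0.31), and 4 lower, led by Txk (-3.70 ± 0.24). List medians for kinases were 0.97, 1.11, -1.22, 0.09 and 0.27 in the 5 comparisons, in the order of the text, beside medians of all genes within 0.03 of 0.

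Adapters and effectors differed in both directions. Plcg2, the phospholipase C linked to Syk-type signalling, Lat2, a relative of Lat, and Sh2d1b1, which encodes EAT-2, were higher in gamma-delta than CD8 alpha-beta cells (log2 1.75 ± 0.38, 1.56 ± 0.32 and 1.36 ± 0.39), among 7 of 25 tested. Sh2d1a, which encodes SAP, and Themis led the 5 lower ones (-4.20 ± 0.33 and -1.26 ± 0.27). CD8 alpha-alpha cells also had 7 of 25 higher and 5 lower, with the same 3 genes leading and Themis at -3.25 ± 0.20. In CD4 cells 1 of 26 was higher (Sh2d1a, 1.79 ± 0.29) and 4 lower, led by Lat2 (-3.52 ± 0.60). CD3-negative cells had 4 of 24 higher, led by Sh2d1b1 (0.70 ± 0.10) and Plcg2 (0.67 ± 0.07), and 12 lower, led by Themis (-3.39 ± 0.23) and Plcg1 (-2.18 ± 0.17). Myeloid cells had 11 of 27 higher, led by Card9 (7.75 ± 0.67), and 12 lower, led by Sla2 (-2.95 ± 0.24). The 5 list medians lay between -0.24 and 0.07, near those of all genes.

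Another list holds 17 genes named as brakes, although Ptprc and Trat1 in it do not only restrain the pathway. Its steepest differences lay between CD8 alpha-beta cells and the CD8 alpha-alpha and gamma-delta cells. Cd5 (log2 -6.20 ± 0.33), Cd6 (-4.20 ± 0.35), Sit1 (-3.32 ± 0.42) and Ubash3a (-3.06 ± 0.41) were lower in gamma-delta than CD8 alpha-beta cells, with 5 of 16 lower and 2 higher, and CD8 alpha-alpha cells had 5 of 16 lower and 5 higher. CD4 cells were higher in 3 of 16, Cd5 (1.96 ± 0.29), Ubash3a (1.26 ± 0.30) and Cd6 (0.92 ± 0.28). CD3-negative cells were lower in 9 of 14, Ptprc and Trat1 among them, led by the adapter Lax1 (-1.78 ± 0.18), and higher in Pag1 (0.52 ± 0.09). Myeloid cells had 4 of 14 higher, led by Dok3 (4.18 ± 0.48), and 6 lower, led by Pag1 (-2.62 ± 0.21). Of all genes 32.7% were higher and 24.3% lower there. The 5 list medians lay between -0.25 and 0.23. Of the antigen receptor chains 2 of 4 tested, Cd79b (1.17 ± 0.22) and Cd3g (0.63 ± 0.14), were higher in gamma-delta than CD8 alpha-beta cells, and Cd3d and Cd3e entered the CD3-negative gate, so their differences there are no finding.

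Genes with the most similar profile were found for each member by Pearson's r of log2(CPM + 1) over 32 sums of a cell type in a well and 6937 genes, as a description of sums that share wells. Fcer1g was followed by Sh2d1b1 (r = 0.971), Plcg2 (0.965) and Eef2k (0.959), and Tyrobp by Rnf180 (0.967), Plcg2 (0.963) and Phka1 (0.952). Among the genes close to Syk were Clic4 (0.918) and Hdac9 (0.897). For Zap70 these were Gimap8, Ikzf3 and Tox (0.976 to 0.980), for Lck Actn2, Fam189b and Gimap1 (0.984 to 0.987), for Cd247 Camk4, Bcl11b and Nlrc5 (0.915 to 0.963), for Lat Bcl11b, Inpp4b and Lax1 (0.936 to 0.964) and for Hcst Cxcr6, Atxn1 and Nlrc5 (0.952 to 0.957). Over the 20 T cell sums alone Syk was below the expression minimum. For each of the other 7 members none of its genes named above was again among its leading 3. Lyn led for Fcer1g (0.992), and Fcer1g was among the leading 3 for Tyrobp (0.984), so the lists follow the choice of cell types.

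The study's treatment comparison set PFF 1 against saline 1 and saline 2 within each cell type. Saline 2 and PFF 1 come from different batches, and saline 1 shares batch 1 with PFF 1. With 3 libraries there is 1 residual degree of freedom, and the spread comes from the saline libraries alone. In gamma-delta cells the saline 1 well had 892 CPM of Tyrobp, saline 2 had 1612 and PFF 1 had 914. For Fcer1g these were 1109, 1684 and 1114 CPM. For these genes in gamma-delta cells PFF 1 thus lay between the saline libraries and nearer saline 1. Other members lay nearer saline 2. Among them were Hcst in gamma-delta cells (log2 -0.46 against saline 1 and -0.02 against saline 2) and Tyrobp in CD3-negative cells (0.41 and -0.12). Syk in CD3-negative cells was at 315, 235 and 275 CPM, again between the saline libraries, as was Lat in CD8 alpha-beta cells at 246, 63.4 and 230 CPM.

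Of 39 tests of members in 5 cell types none was called by edgeR (adjusted p 0.918 to 1.00), 2 had an unadjusted p under 0.05, and DESeq2 called none. All genes were called in 0.175% of 8551 in CD8 alpha-beta, 0% of 12550 in CD8 alpha-alpha, 0.361% of 11898 in gamma-delta, 0.0696% of 10054 in CD3-negative and 0.295% of 11517 in myeloid cells. For CD8 alpha-alpha cells 658 genes had an unadjusted p under 0.05 and DESeq2 called 1. The 2 members were Lat in CD8 alpha-beta cells (log2 0.87 ± 0.36, edgeR adjusted p = 1.00) and Tyrobp in gamma-delta cells (-0.47 ± 0.23, adjusted p = 0.918). Within batch 1, against saline 1 alone and without a test, their log2 values were 0.06 and 0.11, and against saline 2 they were 1.90 and -0.83. Fitted log2 fold changes over the 39 tests ran from -1.04 for Lat in myeloid cells (SE 0.77) to 1.07 for Syk in CD8 alpha-alpha cells (SE 0.60). The Syk share of CD8 alpha-alpha cells was not above that of enterocytes. No gene of the 5 pathway lists was called in these comparisons, and CD4 cells were too few for a test.

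**Figure D5:**
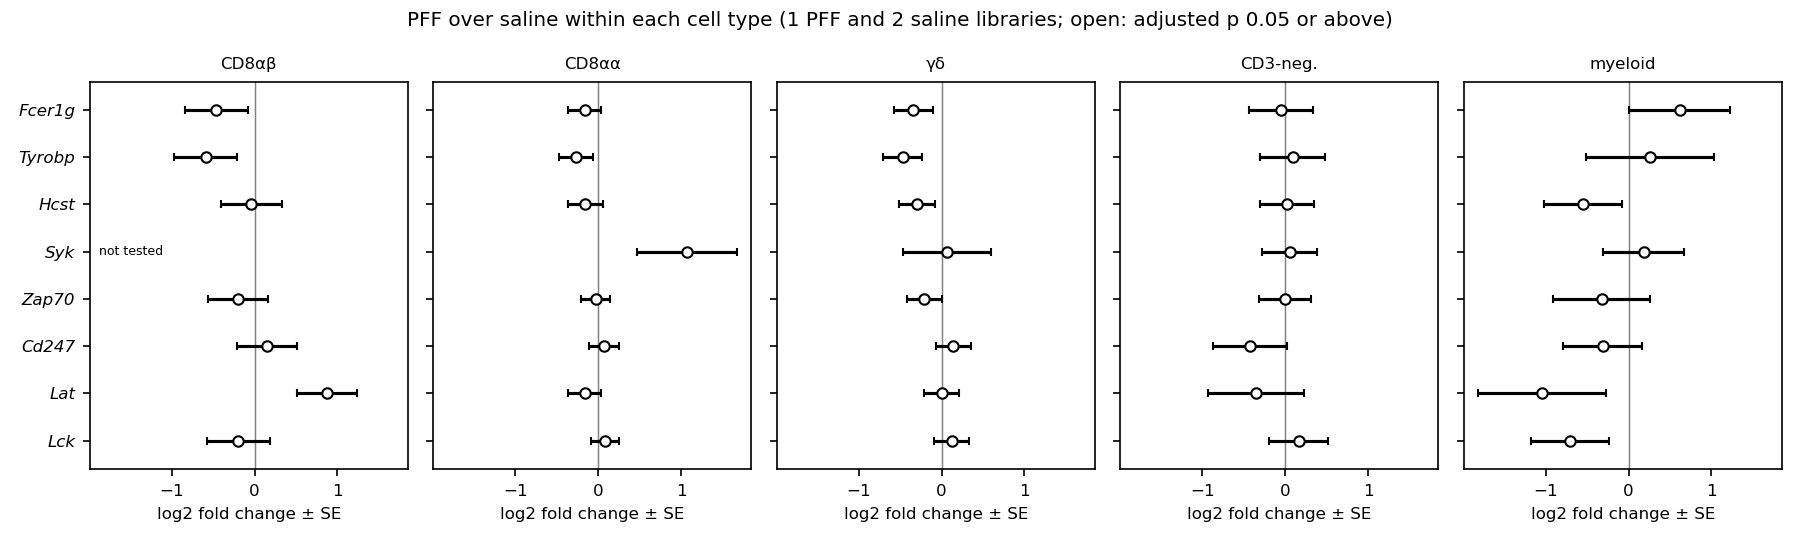
Log2 fold change of PFF over saline with its standard error for each member, by cell type, from edgeR with 1 PFF and 2 saline libraries. All points are open (adjusted p of 0.05 or above), and they run from -1.04 (Lat in myeloid cells) to 1.07 (Syk in CD8 alpha-alpha cells).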

How the data were processed

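UMI counts, whole numbers for each gene in each barcode, were deposited by the authors and were made with Cell Ranger 7.0.0 per the file headers, on mm10 per the submitters' processing notes. For intron counting, the annotation release and cell calling, no source used here gives the setting. Wells were told apart by barcode suffix. A cell was kept when it had 500 UMIs and 200 genes or more and no more than 15% of its UMIs were mitochondrial. Scrublet's automatic threshold marked 0 to 0.577% of the cells of a well, so cells were dropped by rank of score, 0.8% for every 1000 cells (8 to 1203 cells a well). Clustering used 2000 variable genes without the 8 members, 30 principal components, 15 neighbours and Leiden resolution 1 (scanpy 1.11.5, anndata 0.12.19, leidenalg 0.10.2, Python 3.11.15). A cluster's lineage required markers in at least 50% of its cells. That rule, the CD3-negative gate and its minimum of 3000 UMIs were set after the clusters were seen.

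T cell types needed at least 1 UMI of Cd3d or Cd3e and of each named gene, and 0 of the excluded ones: Trdc and Cd4 for both CD8 types, Cd8b1 for CD8 alpha-alpha, Trac, Cd8b1 and Cd4 for gamma-delta, and Cd8a, Cd8b1 and Trdc for CD4. The myeloid class joins macrophage-like and dendritic-like clusters. UMIs were summed per type and well with at least 20 cells and tested 2-sided with edgeR 4.0.16 in R 4.3.3 (TMM, filterByExpr, quasi-likelihood), with 5 residual degrees of freedom for 6 wells. Standard errors were derived from the edgeR fit, as the absolute log2 fold change divided by the square root of the quasi-likelihood F statistic. DESeq2 1.42.0 was an alternative. The scripts were tested on simulated data. In the fits of PFF over saline, simulated 2-fold changes were called in 1.03% (myeloid) to 49.5% (CD8 alpha-alpha) of cases. A member not called there may therefore still have changed. The deposited files of saline 1, saline 2 and PFF 1 hold 119282469, 163433860 and 142955760 UMIs, and 95% intervals cover counting error only.

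The 8 members, the lists and the tests were chosen with earlier results of these data known. All members are named in every comparison, and of each list the called genes with the highest and lowest fold changes with up to 2 more in each direction. The 3 most similar genes of a member were taken among genes with a mean of at least 20 CPM. Some genes that these rules name are not reported here. Sequences and coordinates are from GENCODE M21 (GRCm38). Reference proteins and promoters were not used here.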

Additional observations from a re-analysis of the deposited data

Results flagged for a closer look

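In each group of 5 saline wells the highest and lowest values were set against the others by Dixon's criterion (gap over range above 0.71), and 3 of 40 groups exceeded it, where chance gives about 5%. Tyrobp in CD8 alpha-beta cells was at 1323 CPM in saline 2 and at 41.0 to 372 CPM in the other 4 wells. Only 4 of the 49 CD8 alpha-beta cells of saline 2 lay in the cluster with most Cd8b1-positive cells, and the part of this in the result was not tested. Syk in CD8 alpha-beta cells was at 0.844 CPM in shared 3, from 4 Syk UMIs in 648 cells. It was at 0 in the other saline wells, which held only 38 to 49 such cells, too few to show so low a level. Syk in gamma-delta cells was at 13.3 CPM in saline 2 and at 0 to 2.29 CPM in the others. Enterocytes had 0 to 12.6 CPM of Syk.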

How the results depend on the processing

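Of 138 counts of called genes, 50 moved by over 1.5 times under an alternative. With no filter on low counts 1733 genes passed for gamma-delta over CD8 alpha-beta cells (941 as reported), 2010 for CD8 alpha-alpha over CD8 alpha-beta (1257) and 66 for PFF in CD8 alpha-alpha cells (0). The 3 unrepeated wells gave 259 and 394 for the first 2, cells of at least 5000 UMIs 132 and 123, and wells left out in turn 218 to 1702 and 321 to 1928. The gate of 2 UMIs gave 1648 for the first. For CD4 over CD8 alpha-beta (580) DESeq2 gave 131, no well term 147, the gate of 2 UMIs 323 and the 5000 UMI minimum 297. For CD3-negative over gamma-delta (1537) these were 1001 with DESeq2, 596 without the well term, 855 at Leiden resolution 2, 917 with doublets kept and, with wells left out in turn, 879 (without PFF 1) to 1631. For PFF in CD8 alpha-beta cells (15) DESeq2, each well as a library and the repeated wells as a library gave 0. In CD8 alpha-alpha cells DESeq2 and each well gave 1, the gate of 2 UMIs 6 and the 5000 UMI minimum 27. In gamma-delta cells (43) RLE, each well, the repeated wells, the gate, doublets kept and removal of barcodes found in 2 wells gave 0, DESeq2 1, the 5000 UMI minimum 7 and removal of cells with hemoglobin 27. In CD3-negative cells (7) these were 0 with DESeq2, 1 with each well, 1 with the repeated wells and 3 without hemoglobin, and in myeloid cells (34) DESeq2 gave 1, each well 3, the repeated wells 4 and the 5000 UMI minimum 1. Removing such barcodes or cells was chosen after seeing the data. Of the most similar genes 0 recurred over T cell types alone, where Syk had no list. Called members kept their call in 414 fits and lost it in 28, none with a changed sign. The 40 reversed log2 values were all of members not called. Between cell types they were Lck in CD8 alpha-alpha (gate, 0.0302), Hcst in CD4 (doublets kept, 0.0266), and in myeloid cells Cd247 (DESeq2 -0.57, no well term -0.0592, Leiden 2 -0.0450, wells left out -0.19 to 0.16) and Lat (no well term 0.12, Leiden 0.5 0.19, wells left out -0.88 to 0.46). For PFF in CD8 alpha-beta cells they were Hcst without the filter (0.00496), with each well Fcer1g 0.40, Tyrobp 0.31, Zap70 0.0429, Cd247 -0.37 and Lat -0.29, and with the repeated wells Fcer1g 0.0168 and Cd247 -0.32. For PFF in CD8 alpha-alpha cells they were Zap70 (no filter 0.0149, repeated wells 0.00833), Cd247 (repeated wells -0.0124) and Hcst (5000 UMIs, 0.0438). In gamma-delta cells they were Syk (DESeq2 -0.0202, gate -0.0185, 5000 UMIs -0.44), Hcst (5000 UMIs, 0.0392) and Lat (doublets kept -0.0389, without shared barcodes -0.00133, without hemoglobin -0.00247). In CD3-negative cells they were Zap70 (RLE -0.0173, DESeq2 -0.00866, without shared barcodes -0.00537), Hcst (each well -0.18, repeated wells -0.10), Lat (each well 0.0607) and Fcer1g (repeated wells 0.00872, doublets kept 0.00475), and in myeloid cells Cd247 (each well 0.11) and Zap70 (doublets kept 0.19). The causes were not tested. No paired analysis was possible because saline and PFF share only 1 replicate number. Not run, for too few cells or wells, were PFF in CD8 alpha-beta cells with the gate of 2 or the 5000 UMI minimum, PFF in CD3-negative cells with that minimum, and CD4 cells in the 3 unrepeated wells or without shared 3 or PFF 1. Depth limits Syk in the T cell types, which the filter removed from comparisons with CD8 alpha-beta cells as reported. Where an alternative did test it, gamma-delta cells gave log2 2.67 without the filter (edgeR adjusted p = 0.00220), 4.29 in the 3 unrepeated wells (0.0155), 2.65 without shared 1 or shared 2 (0.0519 and 0.0680), 2.67 at 5000 UMIs (0.229) and 1.26 with DESeq2 (0.704). CD8 alpha-alpha cells gave 2.47 (0.00794) without the filter, 2.41 without shared 1 (0.0352), 2.32 at 5000 UMIs (0.209) and 2.05 with DESeq2 (0.158). CD4 cells gave -3.50 without the filter (0.965).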

Other observations

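The 10681 cells with UMIs of both Trac and Trdc entered no comparison. Their levels over the 6 wells were 1160 to 1666 CPM for Fcer1g, 951 to 1800 for Tyrobp, 379 to 468 for Cd247, 46.2 to 84.6 for Lat and 0 to 4.03 for Syk, each overlapping the gamma-delta range. All of these but Cd247 also overlapped the range of CD8 alpha-alpha cells, which had 189 to 265 CPM of Cd247. Plasmacytoid dendritic cells, with at least 20 cells in 3 wells, had 2511 to 3736 CPM of Tyrobp, 451 to 681 of Fcer1g and 224 to 258 of Syk. The class is kept apart from the myeloid cells above, which had 1052 to 1785 CPM of Tyrobp. Plasma cells, in 2 wells, had 75.7 and 102 CPM of Syk, below every B cell value.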
